A study of Rattus norvegicus with 12 samples.

Results

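The genes described here are 42 rat genes of protein folding and quality control in the endoplasmic reticulum (ER), the compartment in which secreted and membrane proteins fold. They were chosen by symbol from a list of ER chaperones, folding enzymes, stress sensors and components of ER-associated degradation (ERAD). Parts of the entry and export machinery were on the list too. No measured value entered the rule, but earlier results of these data were known when the list was made. All 42 symbols were found, each in 1 row, among the 32623 genes of the files. By role, 11 of the 42 genes were chaperones of the Hsp70 and Hsp90 kind with their partners. Another 3 belonged to the lectin chaperone cycle (Calr, Canx and Uggt1), and 5 were disulfide enzymes. The others were 4 stress sensors or transcription factors, 13 ERAD genes and 6 genes of entry and export.

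New secretory proteins enter the ER through the Sec61 channel, fold with the help of BiP (Hspa5), lectin chaperones and disulfide isomerases, and leave in coated vesicles. Proteins that fail to fold are recognised by lectins, passed through the membrane by the Hrd1 complex, extracted by the ATPase p97 (Vcp) and degraded by the proteasome. When unfolded proteins build up, the sensors Ire1 (Ern1), Atf6 and Perk (Eif2ak3) start the unfolded protein response: Ire1 splices the mRNA of Xbp1, and Xbp1 and Atf6 raise the genes of chaperones and ERAD, while Perk slows translation and acts through Atf4. Stellate cells of the liver that turn into matrix-secreting myofibroblasts, and macrophages that secrete cytokines, both depend on this machinery.

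Polyadenylated RNA was sequenced from 12 libraries of primary rat cells labelled as hepatic stellate cells (HSC), obtained on density gradients from rats in which long CCl4 inhalation had caused cirrhosis. The cells had been co-cultured across Transwell membranes for 24 h with hAEC (libraries 3, 4, 11 and 12), with hAMSC (7, 8, 15 and 16) or, in the controls, with vehicle (17, 18, 19 and 20). For the hAEC and hAMSC libraries 15000 viable cells are recorded, and for vehicle no such number is given. All 3 groups came from cirrhotic rats, so no cells of healthy liver stand among the libraries used here. The labels spell out neither hAEC nor hAMSC nor the vehicle, and leave unstated how many rats or cultures lie behind the 4 libraries of a group. The p-values below therefore rest on the spread among libraries alone, and that spread may be technical.

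Total counts ran from 27382724 to 34922211 per library. The first principal component of the 2000 most variable genes outside the ER lists held 73.5% of their variance and parted the libraries into 2 sets that the labels do not name. The higher-numbered set holds hAEC 11 and 12, hAMSC 15 and 16 and vehicle 19 and 20, and the lower-numbered set holds hAEC 3 and 4, hAMSC 7 and 8 and vehicle 17 and 18. Each set thus has 2 libraries of each group, and every comparison below compares groups within sets. The markers went against the label: 16 macrophage markers together had 45200 to 47800 CPM (counts scaled to library size) in the higher-numbered set and 22000 to 24400 in the lower-numbered set, whereas 12 stellate and myofibroblast markers together had 62.8 to 72.3 CPM and 75 to 118 CPM. Most of the stellate sum came from Reln, with a mean of 39.5 CPM over the 12 libraries (6.71 to 92.2), and Timp1, with 24.4 CPM (7.59 to 41.7), which is not particular to stellate cells. The other 10 averaged under 5 CPM each, among them Lrat with 0.174 CPM, Des with 1.01 CPM, Acta2 with 1.88 CPM and Col1a1 with 2.2 CPM. The cells are therefore called by their label, HSC, without taking them for stellate cells. Most of the macrophage sum came from Gpnmb, with a mean of 20300 CPM (14000 to 26700). The macrophage markers did not move together between the sets. Lyz2 had 8400 to 9940 CPM in the higher-numbered set and 984 to 1200 in the lower-numbered set. Cd14 ran the other way, with 167 to 217 and 932 to 1080 CPM, and Cd68 stayed at 1530 to 1680 CPM. In such bulk libraries, fewer cells of a type and less RNA per cell cannot be told apart.

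The promoters are described first, because some of these genes share an ER stress element there. RefSeq promoter windows on the GRCr8 build, from 250 bases before to 50 bases after a start site, were at hand for 34 of the 42 genes, in 35 windows since Hyou1 has 2 starts. They were searched on both strands for the ER stress response element (ERSE), bound in other systems by NF-Y and Atf6, which is CCAAT and CCACG with 9 bases between them, and for ERSE-II, which is ATTGG and CCACG with 1 base between them. ERSE stood in 9 of the 35 windows (25.7%), against 22 of 33469 windows in the whole table (0.0657%). The 9 genes were Calr, Canx, Creld2, Derl3, Dnajc3, Ero1b, Hsp90b1, Hspa5 and Xbp1. ERSE-II stood in 3 of the 35 windows (8.6%), those of Dnajb11, Herpud1 and Hyou1, against 17 of 33469 (0.0508%). Of the 34 genes with a window, 12 thus held ERSE or ERSE-II and 22 held neither. The boxes are common and overlap these elements: CCAAT alone stood in 85.7% of the members' windows and 37.5% of all windows, and CCACG alone in 82.9% and 31.6%. The UPRE motif TGACGTGG stood in 3 of the members' windows (8.6%), those of Dnajc10, Hyou1 and Vcp, against 0.595% of all windows. A match is a description of the letters and not a measured binding site, and the ER stress genes in which the element was defined are among the members.

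Stretches of 39 bases around the element are given for 7 of the genes that hold one, as examples. Each runs 5′ to 3′ on the strand of the gene, with the 2 boxes in capitals in either orientation. The first 5 hold ERSE and the last 2 hold ERSE-II.
Hspa5, chr3:38452963-38453001, plus strand: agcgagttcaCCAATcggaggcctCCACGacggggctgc
Creld2, chr7:121789229-121789267, plus strand: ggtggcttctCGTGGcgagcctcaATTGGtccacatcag
Xbp1, chr14:84604548-84604586, plus strand: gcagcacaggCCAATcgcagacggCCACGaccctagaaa
Calr, chr19:40213125-40213163, plus strand: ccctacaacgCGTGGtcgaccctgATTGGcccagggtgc
Dnajc3, chr15:102432524-102432562, plus strand: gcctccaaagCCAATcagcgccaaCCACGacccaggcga
Herpud1, chr19:10614807-10614845, minus strand: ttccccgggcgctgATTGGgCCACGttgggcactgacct
Hyou1, chr8:53602680-53602718, plus strand: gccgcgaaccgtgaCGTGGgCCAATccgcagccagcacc
In Hspa5, Xbp1 and Dnajc3 the element reads CCAAT first, and in Creld2 and Calr it reads CGTGG first, which is the same element on the other strand.

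No member passed the test in any comparison of the co-cultures. All 42 genes passed the filter on low counts and were tested with edgeR's quasi-likelihood test with the library set in the model, two-sided, with Benjamini-Hochberg adjustment over 13539 genes and a threshold of 0.05. With hAEC against vehicle, 0 of 42 members were called, and 0% of all genes were called. With hAMSC against vehicle, 0 of 42 members were called, and 0.236% of all genes (32) were called. Between hAEC and hAMSC, 0 of 42 members were called, and 0.0222% of all genes (3) were called. At an unadjusted p under 0.05, 4 members were higher with hAEC than with vehicle (3.26% of all genes were higher at that level), 6 were higher with hAMSC than with vehicle (5.27% of all genes) and 1 was lower with hAEC than with hAMSC (3.37% of all genes). DESeq2 and limma voom also called 0 members in each comparison. Both co-cultures were set against the same 4 vehicle libraries, so these differences share their control.

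The intervals were taken gene by gene and rest on the spread among libraries, which may be technical. They describe these libraries and do not bound what a co-culture can do in other rats or cultures. For hAEC against vehicle, the 95% interval of the difference lay within 1.2-fold in either direction for 37 of 42 genes, and for hAMSC against vehicle also for 37 of 42. For hAEC against hAMSC it lay within 1.2-fold for 39 of 42. Within 1.5-fold lay 40 of 42 in each comparison, and the exceptions were the low-count genes Derl3 and Ero1b. The sign of the difference was above 0 for 26 of 42 members with hAEC (48.5% of all genes; median log2 difference 0.01) and for 33 of 42 with hAMSC (48.9% of all genes; median 0.04). Under other settings the count for hAMSC ran from 26 to 33. The median over all genes tested was -0.003 in both comparisons. Single libraries moved these small medians. For hAMSC the median was 0.02 without vehicle 18 and between 0.03 and 0.05 without any other library. For hAEC it was 0.0015 when hAEC 4 was left out. The vehicle libraries moved the hAEC median to 0.0314 (17 left out), 0.0024 (18), 0.0198 (19) and 0.0039 (20).

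Markers of other cell types were read in the same comparisons. Cd163, a scavenger receptor of macrophages, had 98.7 and 96 CPM with hAEC, 138 and 135 with hAMSC, and 85.5 and 85.1 with vehicle in the higher-numbered set, and 109 and 112 CPM with hAEC, 123 and 178 with hAMSC, and 108 and 99.1 with vehicle in the lower-numbered set. Cd163 rose with hAMSC, by a log2 difference of 0.61 (SE 0.09, edgeR quasi-likelihood, adjusted p = 0.0277), while the 16 macrophage markers were split, with 9 above 0 and a median of 0.05. No other marker tested passed. All 10 endothelial markers were above 0 with hAMSC (median 0.37), with Kdr at 0.51 and the low-count Stab2 and Oit3 at 1.12 and 1.66. Their sum was 222 and 208 CPM with hAEC, 351 and 285 with hAMSC, and 224 and 223 with vehicle in the higher-numbered set, and 487 and 508 CPM with hAEC, 477 and 594 with hAMSC, and 546 and 571 with vehicle in the lower-numbered set. In the higher-numbered set hAMSC thus stood above the other groups, and in the lower-numbered set its libraries lay on both sides of them. All 4 hepatocyte markers tested were below 0 with hAMSC (median -1), at low levels: the 9 listed markers summed to 1.85 to 8.48 CPM with hAEC, 1.58 to 7.72 CPM with hAMSC and 4.09 to 10.8 CPM with vehicle. The 10 stellate markers tested had 9 below 0 (median -0.22), and the 5 T and NK cell markers tested were all above 0 (median 0.35). The T and NK levels were low as well. In the higher-numbered set the listed T and NK markers summed to 14.7 and 17.3 CPM with hAMSC and 14.1 and 13.1 with vehicle. In the lower-numbered set the sums were 32.2 and 33.8 CPM with hAMSC and 30.9 and 33 with vehicle. With hAEC, 1 of 10 endothelial markers was above 0 (median -0.14). The part of these cell types in the hAMSC values of the ER genes was not tested.

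**Figure D1:**
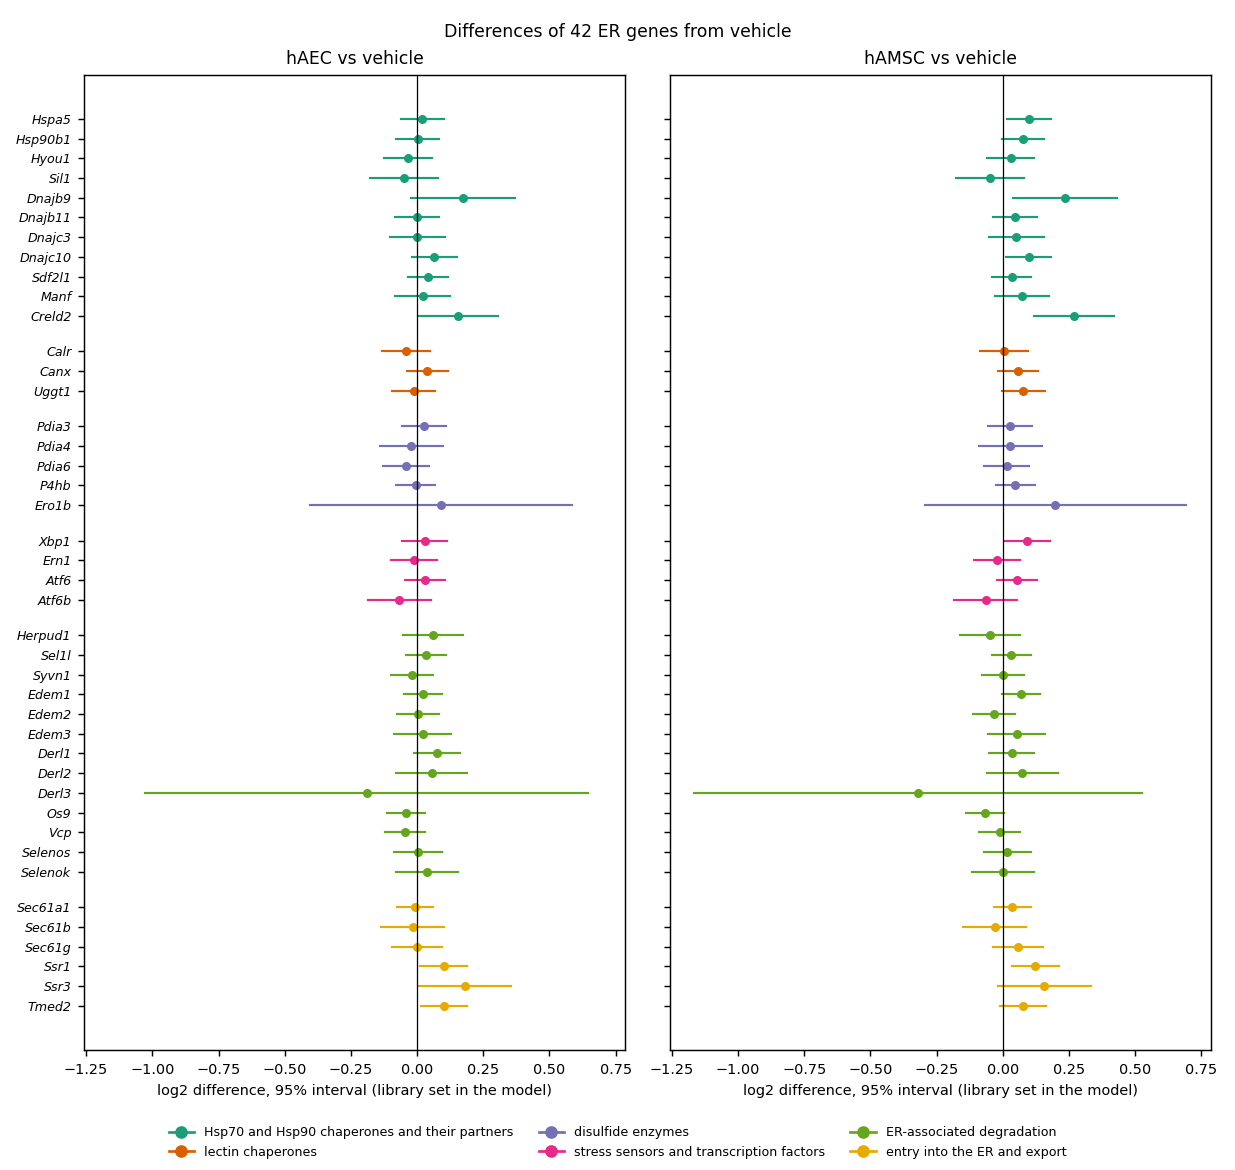
Log2 difference (horizontal axis) of each of the 42 genes (vertical axis, coloured by role) with hAEC against vehicle on the left and with hAMSC against vehicle on the right; points are edgeR estimates over 12 libraries in the model with group and set, and lines are 95% intervals. No gene passed the adjusted threshold, Creld2 had a difference of 0.27 with hAMSC, and the widest intervals belong to Derl3 and Ero1b.

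Of the chaperones built around BiP, 8 of 11 lay above 0 with hAEC, with a median log2 difference of 0.02, and 10 of 11 with hAMSC, with a median of 0.07. For hAMSC the count was 10 of 11 under each of the 4 scalings, 9 or 10 when single libraries were left out, 11 of 11 within the higher-numbered set and 7 of 11 within the lower-numbered set. None of the 11 passed the test in either comparison.

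BiP itself, Hspa5 (ENSRNOG00000018294), the Hsp70 of the ER lumen and the usual readout of ER stress, had 706 and 695 CPM with hAEC, 747 and 759 with hAMSC, and 699 and 674 with vehicle in the higher-numbered set. In the lower-numbered set Hspa5 had 671 and 689 CPM with hAEC, 661 and 750.4 with hAMSC, and 680.1 and 670.5 with vehicle. Both hAMSC libraries of the higher-numbered set lay above all others of that set, while in the lower-numbered set hAMSC 8 was the highest library and hAMSC 7 the lowest. The log2 difference with hAMSC was 0.10 (SE 0.04, 95% interval 0.02 to 0.18, edgeR quasi-likelihood, adjusted p = 0.423), and with hAEC 0.02 (SE 0.04, adjusted p = 0.974).

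Hsp90b1 (ENSRNOG00000026963), the Hsp90 of the ER, had 664 and 645 CPM with hAEC, 685 and 697 with hAMSC, and 649.6 and 647 with vehicle in the higher-numbered set, and 581 and 579 CPM with hAEC, 577 and 642 with hAMSC, and 607 and 563 with vehicle in the lower-numbered set. As for Hspa5, hAMSC 15, 16 and 8 were each above the vehicle libraries of their set and hAMSC 7 was not. The log2 difference was 0.08 with hAMSC (SE 0.04, adjusted p = 0.536) and 0.002 with hAEC (SE 0.04, adjusted p = 0.998), by edgeR's quasi-likelihood test.

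Hyou1 (ENSRNOG00000010944), a large relative of Hsp70 that exchanges the nucleotide of BiP, had 207 and 212 CPM with hAEC, 232 and 224 with hAMSC, and 213 and 204 with vehicle in the higher-numbered set. Its lower-numbered values were 189.6 and 190.1 CPM with hAEC, 183 and 197 with hAMSC, and 196 and 202 with vehicle. The hAMSC libraries were the highest in the higher-numbered set, and in the lower-numbered set they overlapped vehicle while both hAEC libraries lay below it. The effect of hAMSC thus had a log2 size of 0.13 in the higher-numbered set and -0.07 in the lower-numbered set, and the difference between the sets was 0.20 (SE 0.07, adjusted p = 0.368 in edgeR's interaction test).

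Creld2 (ENSRNOG00000004659), an ER-resident protein whose gene is a sensitive responder to ER stress, showed the smallest p among the members. It had 22.9 and 20.2 CPM with hAEC, 26.2 and 25.1 with hAMSC, and 20.5 and 18.8 with vehicle in the higher-numbered set. In the lower-numbered set its values were 27.2 and 27.1 CPM with hAEC, 25.0 and 28.4 with hAMSC, and 23.1 and 25.0 with vehicle. In the higher-numbered set hAMSC lay above both other groups, and in the lower-numbered set hAMSC and vehicle met at 25.0 CPM, so that the groups were parted by less than the spread within either. The log2 difference was 0.27 with hAMSC (SE 0.07, 95% interval 0.12 to 0.42, adjusted p = 0.167) and 0.15 with hAEC (SE 0.07, adjusted p = 0.881), by edgeR's quasi-likelihood test. Leaving out hAMSC 7 gave 0.33 and an adjusted p of 0.0405, so whether Creld2 passed depended on that library.

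Dnajb9 (ENSRNOG00000004006), a J-domain partner of BiP that is also a target of Xbp1, had 22.6 and 23.8 CPM with hAEC, 18.9 and 24.8 with hAMSC, and 19.6 and 20.6 with vehicle in the higher-numbered set, and 24.4 and 20.4 CPM with hAEC, 26.1 and 25.6 with hAMSC, and 22.1 and 18.7 with vehicle in the lower-numbered set. Both hAMSC libraries were the highest of the lower-numbered set, but in the higher-numbered set hAMSC 15 was the lowest library and hAMSC 16 the highest. Its log2 difference came to 0.24 with hAMSC (SE 0.09, adjusted p = 0.426) and 0.17 with hAEC (SE 0.09, adjusted p = 0.91), by edgeR's quasi-likelihood test. Without hAMSC 15 the difference was 0.33 and the adjusted p 0.042.

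Dnajc10 (ENSRNOG00000006803), a J-domain protein that reduces disulfides in substrates of ERAD, had 124 and 125 CPM with hAEC, 121 and 128 with hAMSC, and 122 and 122 with vehicle in the higher-numbered set, and 110 and 104 CPM with hAEC, 114 and 109.7 with hAMSC, and 102 and 97.6 with vehicle in the lower-numbered set. Both co-cultures lay above vehicle in the lower-numbered set, and hAEC did so in the higher-numbered set too. The log2 difference with hAMSC was 0.10 (SE 0.04, adjusted p = 0.438 by edgeR's quasi-likelihood test).

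Dnajb11 (ENSRNOG00000001803), the J-domain partner that binds unfolded chains before BiP does, had 118 and 113 CPM with hAEC, 120.3 and 124 with hAMSC, and 111 and 112 with vehicle in the higher-numbered set, and 122 and 123 CPM with hAEC, 124 and 123 with hAMSC, and 126 and 128 with vehicle in the lower-numbered set. Vehicle was the lowest group in the higher-numbered set and the highest in the lower-numbered set. Its difference between the sets was 0.17 with hAMSC (SE 0.07, adjusted p = 0.425 in edgeR's interaction test).

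Manf (ENSRNOG00000014201), a secreted and ER-resident protein that binds BiP, had 73.0 and 72.9 CPM with hAEC, 75.3 and 80.5 with hAMSC, and 68.9 and 71.0 with vehicle in the higher-numbered set, and 86.2 and 92.3 CPM with hAEC, 84.9 and 94.8 with hAMSC, and 93.5 and 87.3 with vehicle in the lower-numbered set. Both co-cultures lay above vehicle in the higher-numbered set, and the groups overlapped in the lower-numbered set. The log2 difference with hAMSC was 0.07 (SE 0.05, adjusted p = 0.667 by edgeR's quasi-likelihood test).

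Sdf2l1 (ENSRNOG00000001859), which works with Dnajb11, and Sil1 (ENSRNOG00000019826), an exchange factor of BiP, varied by set more than by group. Sdf2l1 had 111 and 112 CPM with hAEC, 111 and 112 with hAMSC, and 110.5 and 106 with vehicle in the higher-numbered set, and 61.3 and 60.4 CPM with hAEC, 60.9 and 59.9 with hAMSC, and 60.9 and 57.7 with vehicle in the lower-numbered set. Sil1 had 29.4 and 31.8 CPM with hAEC, 34.0 and 29.6 with hAMSC, and 30.7 and 31.9 with vehicle in the higher-numbered set, and 20.7 and 20.6 CPM with hAEC, 20.8 and 18.9 with hAMSC, and 21.5 and 21.6 with vehicle in the lower-numbered set. For Sdf2l1 the 3 groups of a set lay within a few CPM of each other, and its log2 difference was 0.04 with hAEC and 0.03 with hAMSC (SE 0.03 in each). Sil1 was the 1 chaperone of the 11 below 0 with hAMSC, at -0.05 (SE 0.06, edgeR quasi-likelihood, adjusted p = 0.844). Dnajc3, the remaining chaperone partner, ran from 63.9 to 82.4 CPM over all libraries, with differences of 0.001 with hAEC and 0.05 with hAMSC.

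**Figure D2:**
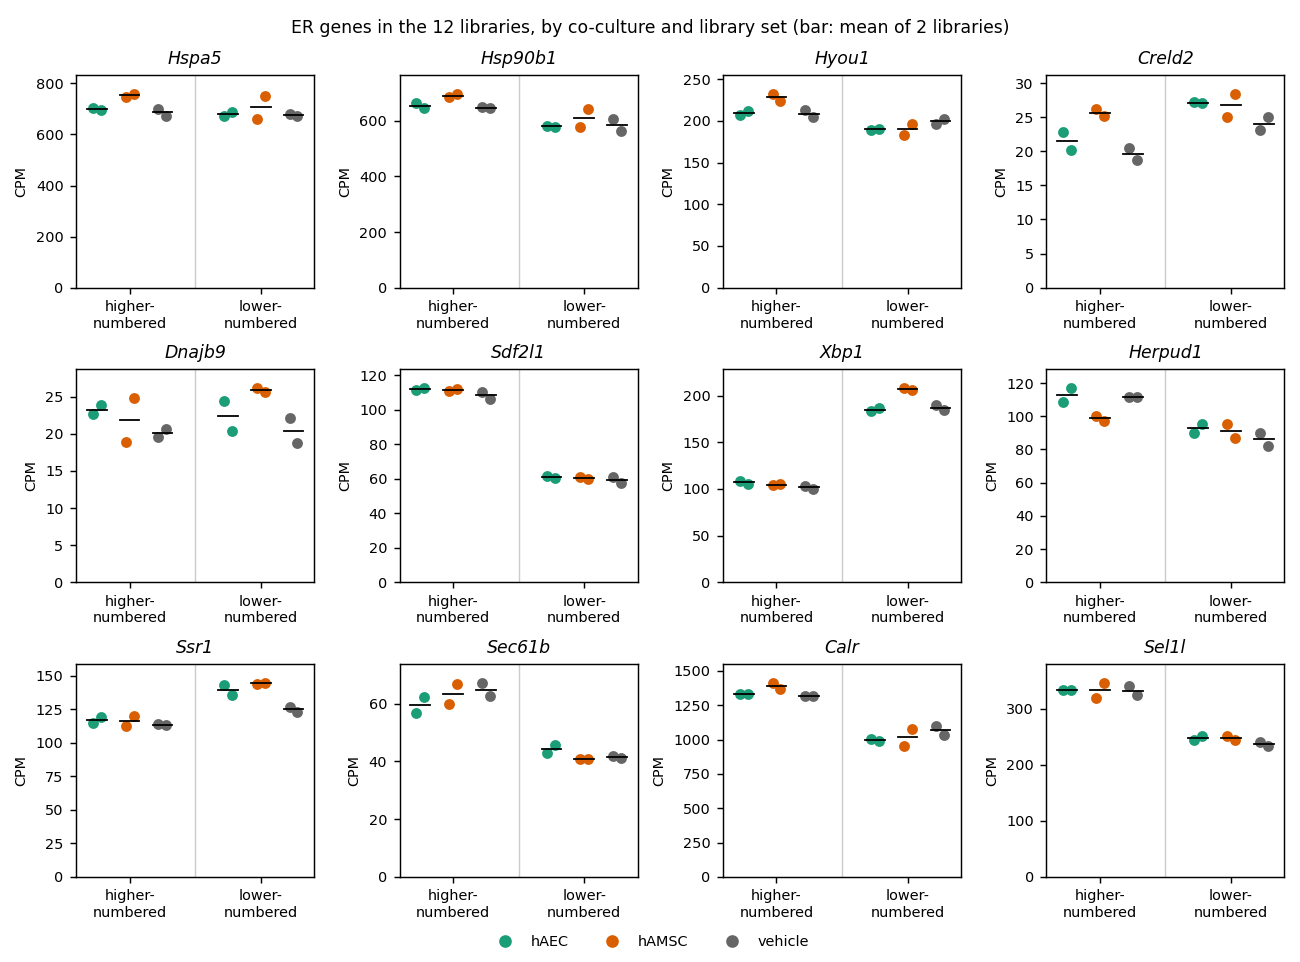
CPM (vertical axes, from 0) of 12 of the 42 genes in each library; within each panel the higher-numbered set is on the left and the lower-numbered set on the right, points are libraries coloured by co-culture (hAEC, hAMSC, vehicle), and bars are means of 2 libraries. Xbp1 and Sdf2l1 part by set in opposite directions, and within a set the co-cultures and vehicle mostly lie close together, as for Sdf2l1 with 106 to 112 CPM over the higher-numbered set.

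The lectin chaperones hold glycoproteins with trimmed sugars until they fold. Calr (ENSRNOG00000003029), soluble in the lumen, had 1335 and 1331 CPM with hAEC, 1412 and 1372 with hAMSC, and 1320 and 1318 with vehicle in the higher-numbered set, and 1005 and 991 CPM with hAEC, 956 and 1075 with hAMSC, and 1101 and 1032 with vehicle in the lower-numbered set. In the higher-numbered set hAMSC was the highest group, and in the lower-numbered set it overlapped vehicle. The log2 difference of Calr was -0.04 with hAEC and 0.003 with hAMSC (SE 0.04 in each). Uggt1 (ENSRNOG00000014901), which returns misfolded glycoproteins to the lectin cycle, had 247 and 225 CPM with hAEC, 254 and 246 with hAMSC, and 244 and 247 with vehicle in the higher-numbered set, and 172 and 168 CPM with hAEC, 186 and 178 with hAMSC, and 168 and 164 with vehicle in the lower-numbered set. Both hAMSC libraries of the lower-numbered set lay above its other libraries. Between hAEC and hAMSC the log2 difference of Uggt1 was -0.09 (SE 0.04, 95% interval -0.17 to -0.01, edgeR quasi-likelihood, adjusted p = 0.718), the smallest p of the members in that comparison. Canx, the membrane-bound lectin, ranged from 785 to 945 CPM, with differences of 0.04 with hAEC and 0.06 with hAMSC.

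Of the disulfide enzymes, 2 of 5 lay above 0 with hAEC (median -0.01) and 5 of 5 with hAMSC (median 0.03). With hAMSC the count was 4 of 5 within the higher-numbered set and 3 of 5 within the lower-numbered set. With hAEC it was 1 of 5 and 3 of 5. P4hb (ENSRNOG00000036689), the founding protein disulfide isomerase, which is also a subunit of the collagen prolyl hydroxylase, had 1504 and 1520 CPM with hAEC, 1602 and 1567 with hAMSC, and 1617 and 1530 with vehicle in the higher-numbered set, and 2006 and 2068 CPM with hAEC, 2116 and 2073 with hAMSC, and 2021 and 1924 with vehicle in the lower-numbered set. Both hAEC libraries were below both hAMSC libraries in each set, and vehicle overlapped one or the other. Its log2 difference was -0.05 between hAEC and hAMSC (SE 0.04, edgeR quasi-likelihood, adjusted p = 0.936). Pdia3, Pdia4 and Pdia6 lay between -0.04 and 0.03 in both comparisons with vehicle. Ero1b, the oxidase that recharges the isomerases, had 3.14 to 6.71 CPM, and its differences of 0.09 with hAEC and 0.20 with hAMSC had an SE of 0.23.

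Of the sensors and transcription factors, Xbp1 (ENSRNOG00000010298), which activates chaperone and ERAD genes once Ire1 has spliced its mRNA, had 109 and 105 CPM with hAEC, 104 and 105 with hAMSC, and 104 and 99.9 with vehicle in the higher-numbered set, and 183 and 187 CPM with hAEC, 208 and 206 with hAMSC, and 190.2 and 184 with vehicle in the lower-numbered set. Both hAMSC libraries lay above both vehicle libraries in each set, clearly apart in the lower-numbered set and nearly touching in the higher-numbered set. The log2 difference was 0.09 with hAMSC (SE 0.04, 95% interval 0.01 to 0.18, adjusted p = 0.478) and 0.03 with hAEC (SE 0.04, adjusted p = 0.96), by edgeR's quasi-likelihood test. Counts per gene do not part spliced from unspliced Xbp1 mRNA, so the splicing was not measured here.

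Ern1 (ENSRNOG00000012864), which encodes the sensor Ire1, had 56.7 and 53.7 CPM with hAEC, 57.1 and 54.4 with hAMSC, and 55.9 and 57.7 with vehicle in the higher-numbered set, and 58.1 and 60.1 CPM with hAEC, 58.0 and 57.5 with hAMSC, and 56.2 and 60.7 with vehicle in the lower-numbered set. It was among the steadiest members: all 12 libraries lay between 53.7 and 60.7 CPM, and its log2 difference was -0.01 with hAEC and -0.02 with hAMSC (SE 0.04 in each). Atf6, the sensor that is cut in the Golgi and moves to the nucleus, ranged from 169 to 188 CPM, with differences of 0.03 with hAEC and 0.05 with hAMSC. Atf6b (ENSRNOG00000000431), its paralog, had 150.3 and 173 CPM with hAEC, 164 and 148 with hAMSC, and 149 and 172 with vehicle in the higher-numbered set, and 188 and 188 CPM with hAEC, 194 and 197 with hAMSC, and 201 and 214 with vehicle in the lower-numbered set. Vehicle was the highest group of the lower-numbered set, and the groups overlapped in the higher-numbered set. Its differences were -0.07 with hAEC and -0.06 with hAMSC (SE 0.06 in each).

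The 13 ERAD genes were spread around 0 in both co-cultures: 9 of 13 lay above 0 with hAEC (median 0.02) and 8 of 13 with hAMSC (median 0.001). Herpud1 (ENSRNOG00000018796), a stress-induced scaffold of the Hrd1 complex, had 108 and 117 CPM with hAEC, 100.1 and 97.2 with hAMSC, and 112 and 111 with vehicle in the higher-numbered set, and 90.1 and 95.4 CPM with hAEC, 95.1 and 86.7 with hAMSC, and 90 and 82.3 with vehicle in the lower-numbered set. In the higher-numbered set hAMSC was below both other groups, and in the lower-numbered set hAMSC overlapped both. The log2 effect of hAMSC on Herpud1 was -0.18 in the higher-numbered set and 0.08 in the lower-numbered set. The difference between the sets was -0.25 (SE 0.09, adjusted p = 0.368 in edgeR's interaction test), the smallest p of the members in that test. Herpud1 thus stood low with hAMSC in the set in which Hyou1, Hspa5 and Creld2 stood high.

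Sel1l (ENSRNOG00000004464), the adaptor that holds the Hrd1 complex together, had 333 and 334 CPM with hAEC, 319 and 346 with hAMSC, and 339.8 and 325 with vehicle in the higher-numbered set, and 244 and 251 CPM with hAEC, 252 and 244 with hAMSC, and 240 and 234 with vehicle in the lower-numbered set. Both co-cultures lay above vehicle in the lower-numbered set and overlapped it in the higher-numbered set, and the log2 difference was 0.03 in each co-culture (SE 0.035). Syvn1, the ubiquitin ligase Hrd1 itself, lay between 108 and 119 CPM in all libraries, with differences of -0.02 with hAEC and 0.001 with hAMSC. Os9 (ENSRNOG00000025570), a lectin that reads trimmed sugars for the complex, had 262 and 255 CPM with hAEC, 260.4 and 247 with hAMSC, and 259.9 and 259.6 with vehicle in the higher-numbered set, and 179.6 and 186 CPM with hAEC, 182 and 177 with hAMSC, and 192 and 194 with vehicle in the lower-numbered set. Both co-cultures lay below vehicle in the lower-numbered set, and the log2 difference with hAMSC was -0.07 (SE 0.03, edgeR quasi-likelihood, adjusted p = 0.536).

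Derlins form part of the channel through which ERAD substrates leave. Derl3 (ENSRNOG00000028243), the family member of secretory tissues, was barely detected: it had 0.522 and 0.446 CPM with hAEC, 0.27 and 0.44 with hAMSC, and 0.353 and 0.402 with vehicle in the higher-numbered set, and 0.202 and 0.252 CPM with hAEC, 0.143 and 0.431 with hAMSC, and 0.433 and 0.388 with vehicle in the lower-numbered set. Its groups overlapped in both sets in the comparison of hAMSC with vehicle, and its difference of -0.32 with hAMSC had an SE of 0.40, so that a change of 1.5-fold was not detectable at this depth. Derl1 and Derl2 had differences of 0.08 and 0.05 with hAEC and of 0.03 and 0.07 with hAMSC. The mannosidase-like Edem1, Edem2 and Edem3 ranged from -0.03 to 0.07 in both comparisons with vehicle. Vcp, Selenos and Selenok, the extraction ATPase and 2 selenoproteins of the ERAD membrane complex, ranged from -0.05 to 0.04.

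The genes of entry and export held the hAEC values with the smallest p. Ssr1 (ENSRNOG00000014165), a subunit of the translocon-associated complex next to Sec61, had 115 and 119 CPM with hAEC, 113 and 120.3 with hAMSC, and 114 and 113 with vehicle in the higher-numbered set, and 143 and 136 CPM with hAEC, 144 and 144 with hAMSC, and 127 and 123 with vehicle in the lower-numbered set. Both hAEC libraries lay above vehicle in each set, with the wider gap in the lower-numbered set. The log2 difference was 0.10 with hAEC (SE 0.04, adjusted p = 0.881) and 0.12 with hAMSC (SE 0.04, 95% interval 0.03 to 0.21, adjusted p = 0.331), by edgeR's quasi-likelihood test.

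Ssr3 (ENSRNOG00000011148), of the same complex, had 88.6 and 93.0 CPM with hAEC, 75.0 and 97.5 with hAMSC, and 82.0 and 85.3 with vehicle in the higher-numbered set, and 111 and 95.3 CPM with hAEC, 108 and 102 with hAMSC, and 91.6 and 82.95 with vehicle in the lower-numbered set. The hAEC libraries lay above vehicle in both sets, and hAMSC 15 was the lowest library of its set. Its log2 difference came to 0.18 with hAEC (SE 0.08, adjusted p = 0.881) and 0.16 with hAMSC (SE 0.08, adjusted p = 0.565), by edgeR's quasi-likelihood test. Without hAMSC 15 the hAMSC difference was 0.24 and its adjusted p 0.048.

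Tmed2 (ENSRNOG00000001053), a cargo receptor of the vesicles between ER and Golgi, had 298 and 289 CPM with hAEC, 266 and 303 with hAMSC, and 280.4 and 268 with vehicle in the higher-numbered set, and 315 and 295 CPM with hAEC, 306 and 301 with hAMSC, and 290.5 and 277 with vehicle in the lower-numbered set. Each hAEC library lay above both vehicle libraries of its set. With hAEC the log2 difference was 0.10 (SE 0.04, 95% interval 0.01 to 0.19, adjusted p = 0.881) and 0.08 with hAMSC (SE 0.04, adjusted p = 0.58), by edgeR's quasi-likelihood test.

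Among the Sec61 subunits, Sec61a1 (ENSRNOG00000013743), the pore itself, had 239.7 and 241 CPM with hAEC, 250.4 and 242 with hAMSC, and 245 and 231 with vehicle in the higher-numbered set, and 242 and 235 CPM with hAEC, 244 and 251 with hAMSC, and 245 and 242 with vehicle in the lower-numbered set. Every library lay between 231 and 251 CPM, and both hAEC libraries were below both hAMSC libraries in each set. Its difference was -0.01 with hAEC and 0.04 with hAMSC (SE 0.03 in each). Sec61b (ENSRNOG00000006345), a small subunit, had 56.7 and 62.3 CPM with hAEC, 60.1 and 66.8 with hAMSC, and 67.2 and 62.7 with vehicle in the higher-numbered set, and 43.0 and 45.7 CPM with hAEC, 40.7 and 40.8 with hAMSC, and 41.8 and 41.3 with vehicle in the lower-numbered set. The hAEC libraries were below vehicle in the higher-numbered set and above it in the lower-numbered set, with a difference between the sets of -0.22 (SE 0.10, adjusted p = 0.912 in edgeR's interaction test). Sec61g, the remaining subunit, had differences of 0.0002 with hAEC and 0.06 with hAMSC.

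In both sets at once, the libraries of 2 groups did not overlap for few members. With hAEC above vehicle in both sets stood 4 members, Tmed2, Dnajc10, Ssr3 and Ssr1, beside 4.39% of all genes. With hAMSC above vehicle in both sets stood 2 members, Creld2 and Xbp1, beside 3.94% of all genes. With hAEC below hAMSC in both sets stood 3 members, Dnajb11, Sec61a1 and P4hb, beside 3.83% of all genes. For hAEC above hAMSC the count was 0 members, beside 3.69% of all genes. None of these genes passed the edgeR test.

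Between the co-cultures, 12 of 42 members were higher with hAEC than with hAMSC (50% of all genes were), and the median log2 difference was -0.03, against -0.0001 over all genes. Without hAMSC 7 that median was -0.009, and without hAEC 4 it was -0.0178. The chaperones were lower with hAEC for 10 of 11 (median -0.05). All 3 genes of the lectin cycle and all 5 disulfide enzymes were lower, and the ERAD genes were even, with 7 of 13 higher. Within the lower-numbered set, 7 of 11 chaperones (median -0.02), 3 of 3 lectin cycle genes and 3 of 5 disulfide enzymes were lower with hAEC. Within the higher-numbered set the counts were 8 of 11 (median -0.08), 2 of 3 and 5 of 5. After Uggt1, the smallest p belonged to Hspa5 at -0.08 (SE 0.04, adjusted p = 0.786), Herpud1 at 0.11 (SE 0.05, adjusted p = 0.799), Hsp90b1 at -0.07 (SE 0.04, adjusted p = 0.801) and Creld2 at -0.11 (SE 0.07, adjusted p = 0.912), by edgeR's quasi-likelihood test.

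Whether a co-culture acted differently in the 2 sets was tested directly with an interaction term. No member passed: 0 of 42 for hAEC against vehicle (0% of all genes passed), 0 of 42 for hAMSC against vehicle (0.199% of all genes) and 0 of 42 for hAEC against hAMSC (0% of all genes). At an unadjusted p under 0.05 the counts were 1 member (5.4% of all genes), 4 members (10% of all genes) and 2 members (5.2% of all genes). The 4 members for hAMSC were Herpud1, Hyou1, Dnajb11 and Ssr1, of which Hyou1 and Dnajb11 had a positive and Herpud1 and Ssr1 a negative difference between the sets. For hAEC against hAMSC, Xbp1 had the smallest p, with a difference of 0.20 between the sets (SE 0.07, adjusted p = 0.813 in edgeR's interaction test), and Creld2 had -0.27 (SE 0.13, adjusted p = 0.95).

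Within single sets, taken from the same model, 0 members passed for hAMSC against vehicle in the higher-numbered set (1.02% of all genes did) and 0 in the lower-numbered set (0.0812%). Creld2 came nearest, with a log2 difference of 0.39 in the higher-numbered set (SE 0.09, adjusted p = 0.0688) and 0.15 in the lower-numbered set (SE 0.09, adjusted p = 0.54), by edgeR's quasi-likelihood test.

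The library sets were the larger axis of variation for these genes, and since the sets were read from the expression itself, the following is a description with no test. The 6 libraries of one set did not overlap the 6 of the other for 24 of 42 members (54.9% of all genes): 18 members were higher in the higher-numbered set (26.9% of all genes) and 6 were lower (28%). The sets both did not overlap and were over 1.5 times apart for 3 members (29.7% of all genes), Xbp1, Sdf2l1 and Sil1. The median size of the log2 ratio between the sets was 0.204 for the members and 0.383 over all genes.

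Sdf2l1 averaged 110.6 CPM in the higher-numbered set and 60.2 CPM in the lower-numbered set, a ratio of 1.84. Xbp1 ran the other way, with 104 and 193 CPM, so that the lower-numbered set was 1.85 times the higher-numbered one. Next among members higher in the higher-numbered set came Sil1 (31.2 and 20.7 CPM), Sec61b (62.6 and 42.2 CPM), Uggt1 (244 and 173 CPM) and Os9 (257 and 185 CPM). Next among those lower in it came P4hb (1557 and 2035 CPM), Atf6b (159 and 197 CPM), Manf (73.6 and 89.8 CPM) and Ssr1 (116 and 136 CPM). Hspa5 averaged 713 and 687 CPM, a ratio of 1.04, with overlapping sets. Xbp1 and textbook targets of the unfolded protein response thus did not all share a direction. Xbp1 and Manf were lower in the higher-numbered set, and Creld2 and Dnajb9 averaged lower in it with overlapping sets. In contrast, Sdf2l1, Herpud1, Sel1l and Calr were higher in it.

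Markers of other cell types moved with the sets. The plasma and B cell list, added because plasma cells are rich in Xbp1, summed to 138 to 148 CPM in the higher-numbered set and 370 to 397 CPM in the lower-numbered set. This sum came from Sdc1, Irf4 and Prdm1, which other cells express too, while its defining markers were near 0: Jchain averaged 0.512 CPM, Mzb1 0.0213 CPM and Cd79a 0.0716 CPM. The endothelial list of 10 markers summed to 208 to 351 CPM and 477 to 594 CPM. The part of the macrophage and endothelial levels in the set differences of the ER genes was not tested.

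**Figure D3:**
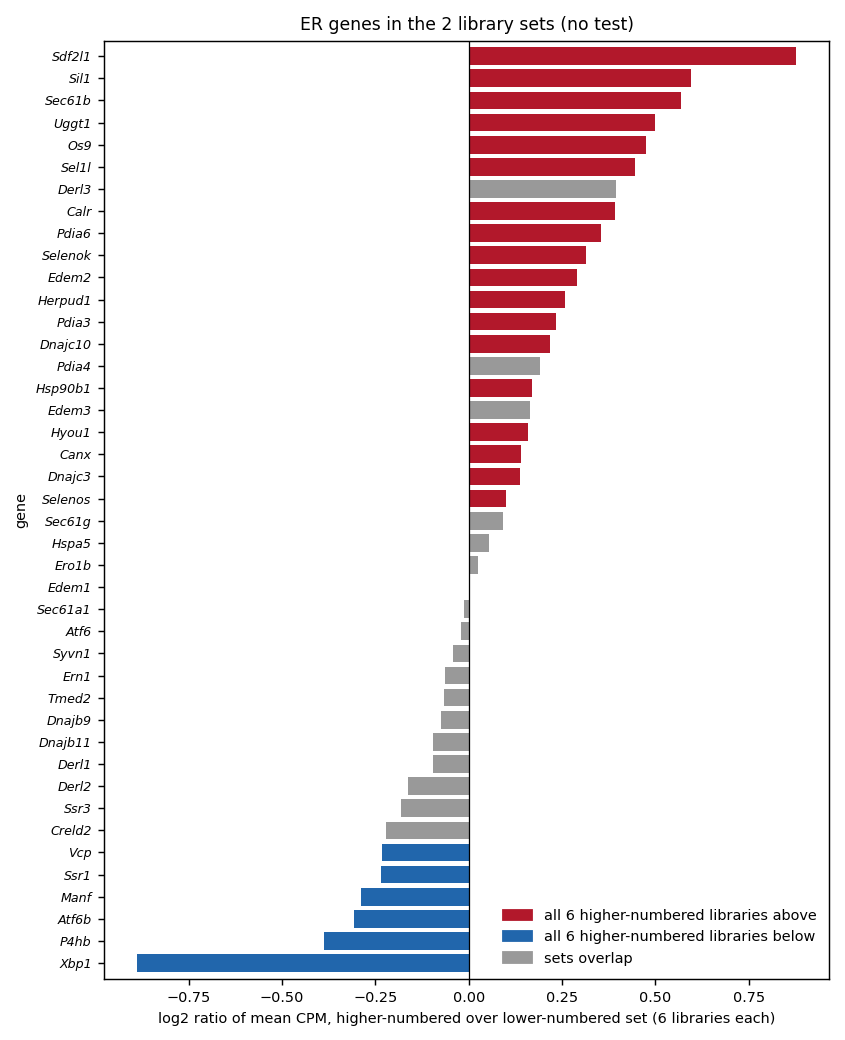
Log2 ratio of mean CPM in the higher-numbered over the lower-numbered set (horizontal axis, 6 libraries a set) for each of the 42 genes (vertical axis); red bars are genes with all 6 higher-numbered libraries above all lower-numbered ones, blue bars the reverse, and grey bars genes whose sets overlap. Sdf2l1 and Xbp1 are the extremes at 0.88 and -0.89, with 18 red and 6 blue bars.

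Single libraries weighed on the group values. Within its set, hAMSC 16 stood above the set mean for 34 of 42 members and hAMSC 8 for 28 of 42, while vehicle 20 did so for 11 of 42 and vehicle 18 for 12 of 42. Over all genes tested, those 4 libraries stood above their set mean for 49.6%, 49.7%, 49.4% and 51.7%. The hAMSC libraries 15 and 7 had 24 and 25 members above, the hAEC libraries between 18 and 24, and vehicle 19 and 17 had 16 and 23. Between the 2 libraries of one group and set, the median size of the log2 difference over the members ran from 0.041 to 0.069. The 42 genes together held 1.05 and 1.06% of all counts with hAEC in the higher-numbered set, 1.08 and 1.09% with hAMSC and 1.07 and 1.04% with vehicle. In the lower-numbered set they held 1.03 and 1.03% with hAEC, 1.04 and 1.07% with hAMSC and 1.05 and 1% with vehicle.

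**Figure D4:**
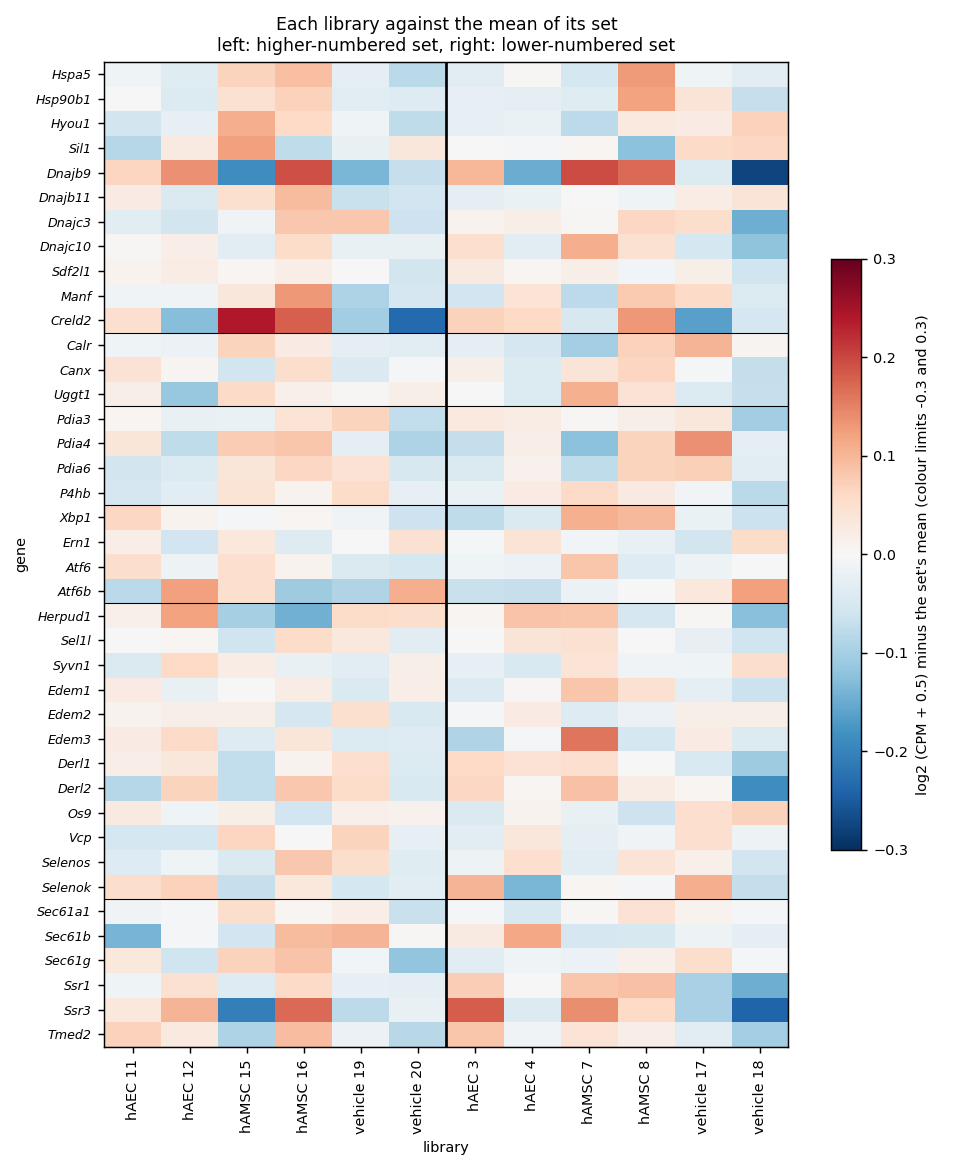
Log2 (CPM + 0.5) of 40 of the 42 genes (rows, grouped by role) in each library (columns) minus the mean of its set, as colour from blue (below) to red (above); the low-count genes Derl3 and Ero1b are left out. Columns run hAEC, hAMSC, vehicle within the higher-numbered set on the left and the lower-numbered set on the right; hAMSC 16 is mostly red (34 of 42 members above its set mean) and vehicle 20 and 18 are mostly blue.

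The members were also split by the promoter element. With hAMSC against vehicle, 10 of the 12 genes with ERSE or ERSE-II were above 0 (median 0.05) and 17 of the 22 with neither were (median 0.04). With hAEC against vehicle, the counts were 8 of 12 (median 0.01) and 14 of 22 (median 0.01). Creld2, Hspa5 and Xbp1 carry ERSE and had 3 of the 6 smallest p with hAMSC, whereas Dnajb9, Dnajc10 and Ssr1, which had the rest, carry neither ERSE nor ERSE-II in this window. Dnajc10 does hold the UPRE motif there. No difference between these classes was tested.

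The wider ER network was read from 5 further lists with 103 genes tested of 110 listed, chosen by function with earlier results of these data known. For folding enzymes outside the members, 12 of 18 were above 0 with hAMSC (median 0.02), and none of the 18 passed. For other ERAD genes 5 of 19 were above 0 (median -0.03), for other translocon, signal peptidase and glycosylation genes 15 of 25 (median 0.02) and for ER to Golgi transport 17 of 26 (median 0.02), with no gene passing in these 3 lists. With hAEC no gene of the 5 lists passed, and the medians lay between -0.02 and 0.01. Tmx1, a membrane-bound thioredoxin of the ER, was nearest among the folding enzymes, at 0.16 with hAMSC (SE 0.05, adjusted p = 0.286) and 0.14 with hAEC (SE 0.05, adjusted p = 0.861), by edgeR's quasi-likelihood test.

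The mixed list of the Perk arm and ER stress outputs, like that of other ERAD genes, had its median below 0 with hAMSC. Of 15 genes of this arm and of ER stress outputs, 11 lay below 0 (51.1% of all genes did; list median -0.07), 6 were lower at an unadjusted p under 0.05 (4.41% of all genes), and 1 was called lower (0.0812% of all genes). With hAEC, 10 of 15 lay below 0 (51.5% of all genes; list median -0.01) and none passed. The hAMSC count was 11 or 12 under the other scalings and 10 to 12 with single libraries left out. The hAEC count was 6 without hAEC 3 and 9 to 12 without any other library. Sesn2, a stress-induced regulator of nutrient signalling and a target of Atf4, had 68.9 and 72.6 CPM with hAEC, 59.9 and 56.2 with hAMSC, and 67.4 and 71.7 with vehicle in the higher-numbered set, and 99.9 and 105 CPM with hAEC, 93.4 and 92.1 with hAMSC, and 109 and 109 with vehicle in the lower-numbered set. The hAMSC libraries lay below all others in both sets. Sesn2 fell with hAMSC by a log2 difference of -0.25 (SE 0.04, 95% interval -0.34 to -0.16, edgeR quasi-likelihood, adjusted p = 0.0277), and its difference with hAEC was -0.03 (SE 0.04, adjusted p = 0.955). Sesn2 thus passed in the comparison in which Cd163 rose and the endothelial markers lay above 0. Its call was lost when any of 7 single libraries was left out (hAEC 4 or 11, hAMSC 8 or 16, vehicle 17, 18 or 20), with adjusted p up to 0.112.

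Atf4, the transcription factor of this arm, had 334 and 322 CPM with hAEC, 295 and 298 with hAMSC, and 332 and 316 with vehicle in the higher-numbered set, and 559 and 576 CPM with hAEC, 519.9 and 520.3 with hAMSC, and 579 and 573 with vehicle in the lower-numbered set. It was lowest with hAMSC in both sets, with a log2 difference of -0.14 (SE 0.03, edgeR quasi-likelihood, adjusted p = 0.112). With single libraries left out, the adjusted p of Atf4 in that test ran from 0.079 to 0.284. DESeq2, which called more genes than edgeR in this comparison, gave an adjusted p of 0.000731. Chac1, which degrades glutathione and is a target of Atf4, had 5.67 and 6.75 CPM with hAEC, 4.72 and 4.58 with hAMSC, and 6.35 and 6.18 with vehicle in the higher-numbered set, and 16.4 and 17.5 CPM with hAEC, 14.8 and 13.5 with hAMSC, and 17.3 and 19.8 with vehicle in the lower-numbered set. Chac1 was also lowest with hAMSC in both sets, with a log2 difference of -0.41 (SE 0.08, edgeR quasi-likelihood, adjusted p = 0.0644). Its adjusted p in that test ran from 0.0373 to 0.21 with single libraries left out. Asns, Trib3 and Atf3 had differences of -0.17, -0.26 and -0.22, while Ddit3, which encodes the stress factor Chop, stood at -0.01 and Eif2ak3, the sensor itself, at 0.03. Several of these genes answer to amino acid shortage through Atf4 as well as to ER stress, and the counts do not part the 2 inputs.

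**Figure D5:**
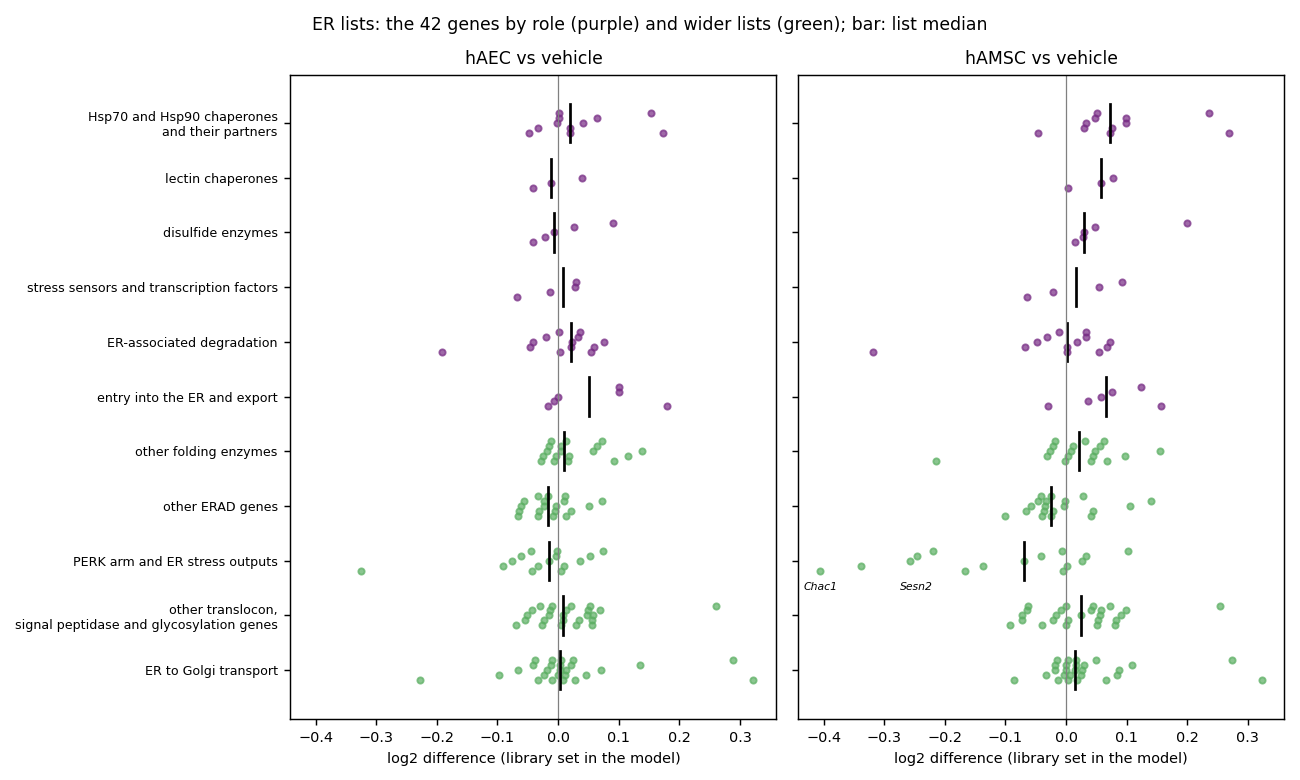
Log2 difference (horizontal axis) of each gene of the 6 roles of the members (purple) and of 5 wider ER lists (green), with hAEC against vehicle on the left and hAMSC against vehicle on the right; points are genes and black bars list medians. In the hAMSC panel the chaperones have a median of 0.07 and other ERAD genes one of -0.03. The list of the Perk arm and ER stress outputs has one of -0.07, with Sesn2 and Chac1 named.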

How the data were processed

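Expected counts per gene were deposited by the authors for 12 libraries, as RSEM estimates them; FastQC, Trim Galore, STAR, RSEM and limma are named, with the builds rn6 and Rnor_6.0, per the submitters' processing notes, and their versions and settings are not given in the sources at hand. RSEM shares reads among similar genes, which can add an error that the tests do not hold. How far this touched paralogs such as Atf6 and Atf6b was not measured.

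Expected counts were rounded to whole numbers. edgeR 4.0.16 in R 4.3.3 kept 13539 of 32623 genes (filterByExpr), scaled libraries with TMM (factors 0.973 to 1.03) and fitted the robust quasi-likelihood model with group and library set; 12070 genes were at 0 in all libraries. Interactions and within-set differences came from a model of group by set. SEs are the log2 difference over the root of F, and 95% intervals use the model's degrees of freedom, so both are approximate. CPM are scaled by TMM and not by gene length, so levels are compared within genes only. The planned listing of protein ends was not made, since no protein table was used here. The tests were checked on counts simulated with independent libraries and the spread fitted here. That check cannot tell whether the libraries of a group are independent. It required recovery only of changes larger than any member's in the model with group and set, so it set no bar for smaller ones.

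Named by rule were 14 members fixed by symbol, the 5 of smallest p in each comparison, the 3 in each interaction test, and the 5 of largest set ratio in each direction, 25 in all. The members, the lists and this rule were chosen with earlier results of these data known. Of 110 wider genes, 103 were matched and tested. Libraries were no duplicates: counts of pairs differed beyond sampling noise. Alternatives were other scalings and filters, DESeq2 1.42.0, limma voom 3.58.1, a fit that is not robust, fewer libraries and no set term.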

Additional observations from a re-analysis of the deposited data

Results flagged for a closer look

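For the 25 named members, 75 groups of 4 libraries were searched for a library far from the other 3, which chance alone gives in about 1 in 20 groups of like libraries; 2 were found. Each group holds 2 libraries of each set, so for genes that part by set, such as Xbp1 and Sdf2l1, no single library could stand apart, and the chance rate does not hold for this count. Hspa5 had 661.3 CPM in hAMSC 7, against 746.6 to 758.9 CPM in the other hAMSC libraries. Tmed2 had 266.3 CPM in hAMSC 15, against 301.4 to 305.8 CPM in the other hAMSC libraries. Leaving out hAMSC 7 gave a log2 difference of Hspa5 between hAMSC and vehicle of 0.14, which did not pass in edgeR's quasi-likelihood test (adjusted p = 0.137).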

How the results depend on the processing

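No member was called in any comparison under the other scalings, filters, tools or fits, or within either set alone. Leaving out single libraries gave 0 to 2 called members for hAMSC against vehicle (Creld2 without hAMSC 7, and Dnajb9 and Ssr3 without hAMSC 15) and 0 elsewhere.

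Counts of all genes moved with the settings. For hAEC against vehicle, DESeq2 gave 2, the 2 groups alone 10, the higher-numbered set alone 6 and the lower-numbered set alone 1. For hAMSC against vehicle, they were 0 without the set term, 52 without the filter, 155 with DESeq2, 12 not robust, 9 with the 2 groups alone, 94 and 86 in the higher-numbered and lower-numbered sets alone, and 8 to 153 with single libraries left out. For hAEC against hAMSC, they were 0 without the set term, 26 without the filter, 80 with DESeq2, 0 not robust, 58 and 1 in the higher-numbered and lower-numbered sets alone, and 0 to 50 with single libraries left out. For differences between the sets, no filter gave 309, 533 and 260 genes (hAEC against vehicle, hAMSC against vehicle, hAEC against hAMSC) and DESeq2 23, 113 and 33; for hAMSC, voom gave 4 and the fit that is not robust 17. Leaving out single libraries gave 0 to 5, 0 to 158 and 0 to 27. The cause was not tested.

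With single libraries left out, members above 0 ran from 22 to 28 (hAEC), 27 to 33 (hAMSC) and 9 to 17 (hAEC against hAMSC), and for differences between the sets from 19 to 26, 19 to 25 and 18 to 22.

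Signs turned for small differences. By upper quartile scaling, Hsp90b1 with hAEC was -0.0064 and Calr with hAMSC -0.0045. In the higher-numbered set alone, Hyou1, Derl3, Calr and Sec61a1 with hAEC were 0.0031, 0.3521, 0.0136 and 0.0142, and Sel1l with hAMSC was -0.001. In the lower-numbered set alone, Hsp90b1, Manf, Xbp1 and Ern1 with hAEC were -0.0059, -0.0118, -0.0112 and 0.0219, Hyou1, Manf, Herpud1 and Calr with hAMSC were -0.063, -0.0007, 0.0855 and -0.0625, and Creld2 between hAEC and hAMSC was 0.0195. With single libraries left out, the ranges crossed 0 with hAEC for Hsp90b1 (-0.0181 to 0.0295), Ern1 (-0.0338 to 0.0086), Manf (-0.0021 to 0.0587) and Sec61a1 (-0.0273 to 0.0046), and with hAMSC for Calr (-0.0193 to 0.043).

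The Sesn2 call with hAMSC was also lost without the set term (adjusted p = 1), when not robust (0.0519), with the 2 groups alone (0.058) and within the higher-numbered set (0.168) and the lower-numbered set (0.0651), in edgeR's quasi-likelihood test. Depth limits Derl3, at 0.143 to 0.522 CPM. No paired analysis was possible because the groups share no sample numbers.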
